A study of Mus musculus with 4 samples.

Results

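The suppressors of cytokine signalling (SOCS) and the Janus kinases (JAKs) were followed at the RNA level in RAW 264.7 cells given Lactobacillus bulgaricus. The members were 10 named genes: Socs1, Socs2, Socs3, Socs4, Socs5, Socs6 and Cish of the SOCS family, and the kinases Jak1, Jak2 and Tyk2. All of their probes on the array were taken by matching each probe's accession to a mouse gene symbol. This gave 13 probes on 22 spots for 10 of 20971 named genes.

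JAKs sit on the inner tails of cytokine receptors and are switched on when a ligand draws the receptor chains together. They phosphorylate STAT proteins, which move to the nucleus and drive target genes. Several SOCS genes are among these targets. Their proteins bind receptors or kinases through an SH2 domain and carry a SOCS box that recruits a ubiquitin ligase, so the pathway holds a feedback loop. In macrophages, Socs1 is best known for restraining interferon signalling and Socs3 for restraining signalling through gp130.

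RAW 264.7 is a mouse macrophage-like line of BALB/c origin transformed by Abelson leukaemia virus. The groups were untreated cells and cells kept for 1, 4 or 6 h with L. bulgaricus at 10 bacteria per cell. Each group was 1 two-colour array of RNA pooled in equal parts from 3 cultures, with the cells' RNA in Cy5 and, in Cy3, a common reference described as pooled RNA of all groups. All 4 arrays lay on 1 slide, and their places on it followed treatment time, so slide position cannot be told apart from time. The values therefore carry no spread between cultures or arrays, no test was made, and precision is limited by having 1 array for each group.

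Cy5 was well above background at 49.5% to 51.8% of spots and Cy3 at 43.5% to 45.4%. Of 12 macrophage lineage markers, 8 had usable spots on all 4 arrays. Of these, 7 were above background in Cy5 throughout, among them Csf1r and Adgre1, and Fcgr1 was so on 3 arrays. Their summed Cy5 signal lay between 25138 and 30945. The intestinal epithelial markers went against the labels of both channels. All 15 were well above background in the reference on all 4 arrays, and 13 were so in Cy5, labelled as a macrophage-like line. Each of their sums in the reference was above all those in Cy5. In the order untreated, 1, 4 and 6 h, the reference sums were 21672, 16759, 16013 and 16206. The Cy5 sums were 4948, 9573, 6362 and 5581. In Cy5, Reg3b read 76.3 in untreated cells and 1908 at 1 h, where its reference was 1631. Lct went the other way, from 387 in untreated cells to 191 at 1 h. At 1 h the log2 ratio of Cy5 to reference lay above untreated for 13 of the 15 and below it for 2. Why Cy5 held these signals was not tested. For the lists that follow, the ranges of the sums over the arrays overlapped between the channels. The 5 smooth muscle markers summed to 3098 to 3816 in the reference and 1469 to 4497 in Cy5. Their Cy5 sum was lowest in untreated cells and highest at 4 h. The 7 exocrine gland markers summed to 1632 to 2162 in the reference and 505 to 2937 in Cy5. Their Cy5 sum was lowest in untreated cells and highest at 6 h, with Prss1, Cpa1 and Amy2a5 at background in Cy5. The 6 fibroblast markers summed to 611 to 843 in the reference and 169 to 663 in Cy5, with Col1a1, Pdgfra and Lum at background in Cy5. The 4 endothelial markers summed to 187 to 246 in the reference and 186 to 252 in Cy5, with Cdh5 and Tek at background in Cy5. Above background in the reference on all 4 arrays were 3 smooth muscle, 4 exocrine gland, 3 fibroblast and 1 of the endothelial markers. The part of these transcripts in the values below was not tested.

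Promoter sequences are shown for the 3 members whose windows held a binding motif of the pathway's own transcription factors. Each runs from 250 bases before to 50 bases after the transcript start in RefSeq's GRCm38.p6 annotation, which held a window for 7 of the 10 members. Capitals mark matches to TTCNNNGAA, the core to which activated STAT dimers bind, or to GAAA, any 2 bases and GAAA again, a core bound by interferon regulatory factors. Both strands were searched.
Socs1: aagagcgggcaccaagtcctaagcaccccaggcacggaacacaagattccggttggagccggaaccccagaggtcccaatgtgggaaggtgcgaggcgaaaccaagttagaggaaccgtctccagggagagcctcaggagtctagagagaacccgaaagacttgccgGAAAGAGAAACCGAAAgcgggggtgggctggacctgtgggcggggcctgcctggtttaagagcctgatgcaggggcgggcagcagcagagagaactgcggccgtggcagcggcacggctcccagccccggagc
Socs3: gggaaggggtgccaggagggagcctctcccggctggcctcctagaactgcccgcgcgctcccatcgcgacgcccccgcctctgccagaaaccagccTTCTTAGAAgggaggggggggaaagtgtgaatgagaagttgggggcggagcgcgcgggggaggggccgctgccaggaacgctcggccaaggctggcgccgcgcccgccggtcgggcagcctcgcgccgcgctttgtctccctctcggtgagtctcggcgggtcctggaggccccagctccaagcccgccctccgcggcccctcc
Cish: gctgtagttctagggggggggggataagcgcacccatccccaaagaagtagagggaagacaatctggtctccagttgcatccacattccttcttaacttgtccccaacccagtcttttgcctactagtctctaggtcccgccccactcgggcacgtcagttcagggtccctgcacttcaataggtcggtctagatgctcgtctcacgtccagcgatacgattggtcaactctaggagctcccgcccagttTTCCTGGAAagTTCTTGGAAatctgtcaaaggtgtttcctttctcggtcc
The Socs1 window lies at chr16:10785487-10785786 on the minus strand, that of Socs3 at chr11:117969317-117969616 on the minus strand, and that of Cish at chr9:107296409-107296708 on the plus strand. In Socs1, GAAAGAGAAA and GAAACCGAAA overlap and span positions -83 to -68 before the start. In Socs3, TTCTTAGAA begins at position -154. In Cish, TTCCTGGAA begins at position 1 and TTCTTGGAA at position 12. Of 32851 windows of 300 bases, 8.30% held the STAT core and 3.44% the interferon regulatory factor core. The windows of Socs4, Jak1, Jak2 and Tyk2 held neither motif. A match describes the letters and is not a measured site.

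After 1, 4 and 6 h none of the measured SOCS and JAK transcripts moved by as much as a factor of 2 in the log2 ratio of Cy5 to reference. A gene counted as measured when both channels were well above background on both arrays compared. This held for 8 of the 10 members, leaving out Socs2 and Cish, whose reference signal was too low. Of these 8, 0 passed a log2 difference of 1 in size at any time. The share of all genes that passed was 0.376% at 1 h (39 genes of 10368), 0.455% at 4 h (47 genes of 10337) and 0.922% at 6 h (95 genes of 10309). The median difference of the 8 members was 0.08 at 1 h, 0.04 at 4 h and -0.02 at 6 h, beside 0.06, 0.0042 and -0.01 over all genes. Replicate spots gave an SD of 0.13 for a difference from the untreated array and 0.10 between successive times, which covers spot error alone. In RNA pooled from whole cultures, fewer cells with a transcript and less of it per cell cannot be told apart. The normexp offset of 50 makes the differences of dim genes read smaller.

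**Figure D1:**
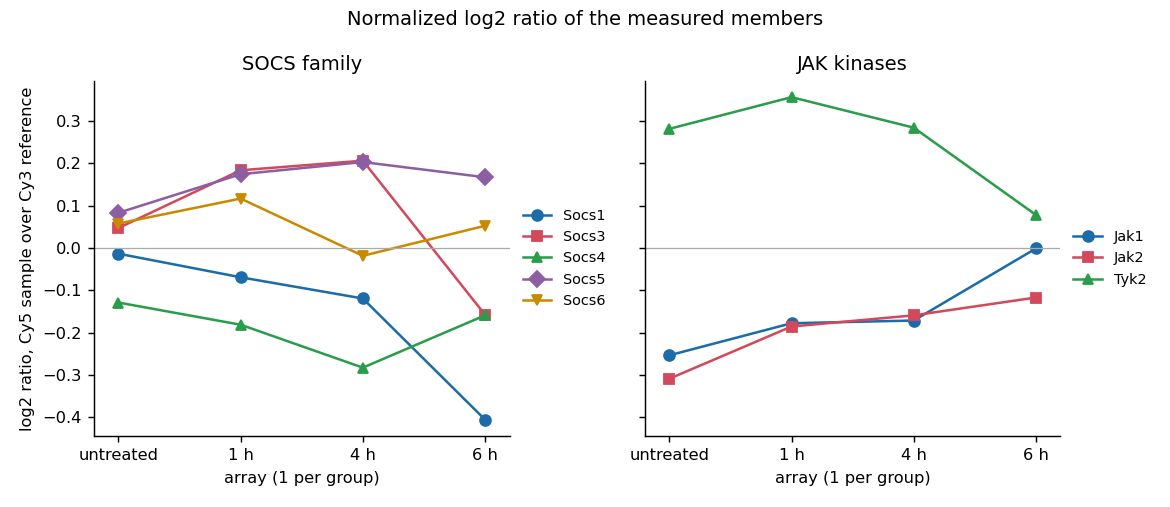
Normalized log2 ratio of Cy5 sample over Cy3 reference (vertical axis) on the untreated, 1, 4 and 6 h arrays (horizontal axis) for the 8 measured members, 1 point per array with no error bar since each group was 1 array. Socs1 and Socs3 are lowest at 6 h, at -0.41 and -0.16, while Jak1 and Jak2 run upwards from -0.25 and -0.31 to -0.0011 and -0.12.

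Socs1 encodes the inhibitor that binds JAKs directly through a kinase inhibitory region, and its promoter is the one printed with the overlapping interferon regulatory factor cores. Its processed Cy5 signal was 127 in untreated cells and 218, 228 and 165 at 1, 4 and 6 h. The reference at the same spot read 118, 247, 228 and 238. Both channels were thus lowest on the untreated array, the reference included, which the labels describe as common to all groups. The log2 ratio was -0.01, -0.07, -0.12 and -0.41. The first 3 arrays lay within the spot error of each other. The 6 h array stood 0.39 below the untreated one and 0.29 below the 4 h one. In the scanner's processed signals the ratio at 6 h differed from untreated by -0.63. In Cy5 alone the direction was the opposite, 0.78, 0.84 and 0.37 above untreated on the log2 scale, with a reference that moved by 1.06, 0.94 and 1.01. Which of the channels describes Socs1 in the cells cannot be read from 1 spot per array.

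Socs3 encodes the inhibitor of gp130 receptors, and its printed promoter holds 1 STAT core. Its Cy5 signal was 3624 in untreated cells, 4437 at 1 h, 4297 at 4 h and 2804 at 6 h. The reference read 3656, 4161, 3807 and 3310. The log2 ratio was 0.05, 0.18, 0.21 and -0.16, so the 6 h array was the lowest in both the ratio and Cy5. From 4 h to 6 h the ratio differed by -0.36 and Cy5 alone by -0.62, the widest move between successive arrays among the measured members in the ratio. From untreated cells to 6 h the ratio differed by -0.20. The earlier differences of 0.14 and 0.16 at 1 and 4 h were close to the spot error of 0.13.

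Socs4 and Socs5 have been linked to signalling by the epidermal growth factor receptor. Socs4 lay below the reference on every array, and Socs5 lay slightly above it. For Socs4, Cy5 was 78.2, 73.3, 73.4 and 94.9 in the order untreated, 1, 4 and 6 h, against a reference of 102, 104, 122 and 124. Its differences from untreated were -0.05, -0.15 and -0.03. The last, taken relative to the median of all genes, had the other sign under 6 of 10 alternative normalizations and filters. In the scanner's processed signals the ratio difference of Socs4 at 4 h was -0.35. For Socs5, Cy5 was 278, 334, 326 and 298 against 268, 305, 296 and 280. Its differences were 0.09, 0.12 and 0.08, so all 3 treated arrays lay above the untreated one by less than the spot error.

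Socs6, which has been linked to turnover of receptor tyrosine kinases, had 2 probes. One was not well above background in either channel on any array. On the other, Cy5 was 139, 165, 103 and 89.3 and the reference 129, 129, 104 and 84.7. Both channels read lowest at 6 h, and the log2 ratio stayed at 0.06, 0.12, -0.02 and 0.05. In Cy5 alone the 6 h array stood at -0.64 against untreated, while the ratio differed by -0.0053. Relative to the median of all genes the ratio difference was 0.0082, and it was below 0 under 6 of 10 alternatives.

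Socs2 encodes the inhibitor known for restraining growth hormone signalling and is itself a STAT5 target. In Cy5 alone, 0, 1 and 0 of the 10 members passed a log2 difference of 1 at 1, 4 and 6 h, and the 1 was Socs2, at 1.07. Over all genes 2.77%, 5.11% and 9.81% did. Its main probe was printed 10 times on the array. Cy5 was 23.1 ± 6.74 (SD over 10 spots) in untreated cells, 29.5 ± 4.52 (7 spots) at 1 h, 47.7 ± 5.96 (10 spots) at 4 h and 35.3 ± 6.16 (9 spots) at 6 h. The reference read 35.2 ± 11.2, 39.0 ± 3.30, 36.5 ± 7.49 and 31.4 ± 8.93 on the same spots. Cy5 was thus highest at 4 h, while the reference overlapped between all arrays.

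Spot by spot, Socs2 Cy5 at 4 h exceeded untreated by 1.08 ± 0.23 on the log2 scale (SD over spots) and was higher in 10 of 10 spots. The reference differed by 0.14 ± 0.59 and was higher in 5 of 10. The processed log2 ratio differed by 0.94 ± 0.74, and by 1.15 ± 0.36 over 9 spots when 1 with an outlying local background was left out. The normalized log2 ratio, the measure used for the other members, differed by 0.16 ± 0.10 over the 10 spots. At 1 h the Cy5 difference was 0.32 ± 0.35 over 7 spots and at 6 h it was 0.63 ± 0.52 over 9 spots. These spots share 1 pool of RNA and 1 labelling, so their SD is not an error between cultures.

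The other Socs2 probes, 1 spot each, gave Cy5 signals of 6.77, 22.9, 32.6 and 23.7 and of 19.6, 30.7, 41.0 and 39.0. Both were also highest at 4 h, the first from a value not well above background in untreated cells. The reference on the first probe read 9.08, 31.1, 33.3 and 22.5, so it moved with Cy5, and on the second 11.2, 24.9, 15.9 and 14.7. All these signals are near background: over the 10-spot probe, the spot exceeded its local background by 23.6, 30.6, 38.9 and 27.6 in Cy5. After normexp correction with an offset of 50, which draws dim signals together, the 4 h difference in Cy5 on the 10-spot probe was 0.25. Among all genes, 2.22% of 11547 were at least 1 higher in Cy5 alone at 4 h. Among genes with an untreated Cy5 signal under 50, as for Socs2, 9.35% of 1241 were.

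**Figure D2:**
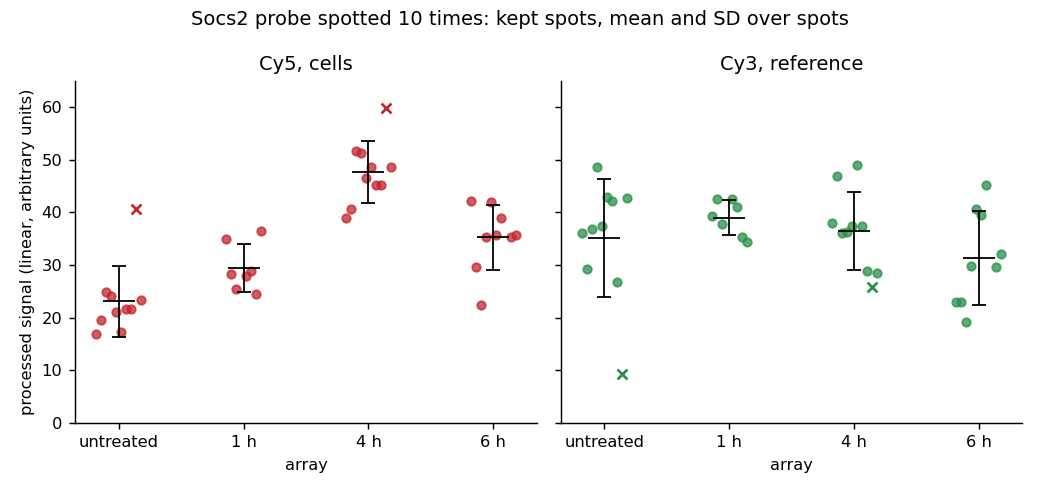
Processed signal (vertical axis, linear arbitrary units) of the Socs2 probe printed 10 times, on each array (horizontal axis), in Cy5 from the cells and Cy3 from the reference. Points are kept spots, crosses are spots with an outlying local background, and bars give the mean and SD over spots: Cy5 goes from 23.1 to 47.7 at 4 h while the reference stays between 31.4 and 39.0.

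Cish encodes the founding member of the family, an inhibitor of STAT5 signalling whose start site carries the paired motif printed above. Its single spot read 26.3, 41.8, 25.7 and 31.3 in Cy5 and 25.4, 19.4, 41.2 and 43.0 in the reference. The reference was not well above background on the untreated and 1 h arrays, so no ratio is given against them. Between 4 and 6 h the ratio differed by 0.01. Cy5 alone was highest at 1 h, 0.67 above untreated on the log2 scale, and 1 spot gives no error for it.

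Jak1 is the kinase shared by interferon, gp130 and common gamma chain receptors. Its Cy5 signal was 3267, 3530, 3434 and 3803 in the order untreated, 1, 4 and 6 h, against a reference of 3804, 4196, 3937 and 3771. The log2 ratio was -0.25, -0.18, -0.17 and -0.0011. The 6 h array was the highest, 0.25 above untreated and 0.17 above 4 h, and the 3 others lay within the spot error of each other.

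Jak2 serves the receptors for interferon gamma, GM-CSF and growth hormone. Cy5 was 597, 630, 710 and 771 against a reference of 798, 815, 808 and 851. The log2 ratio was -0.31, -0.19, -0.16 and -0.12, in the order of time. Neighbouring arrays differed by 0.12 or less, within the spot error, and 6 h stood 0.19 above untreated.

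Tyk2 pairs with Jak1 or Jak2 at the receptors for type I interferon and interleukin 12. Cy5 was 2127, 2333, 2252 and 2074 against a reference of 1756, 1921, 1899 and 1959. The log2 ratio was 0.28, 0.36, 0.28 and 0.08, so the first 3 arrays lay together and 6 h stood 0.20 below untreated. At 6 h Tyk2 therefore lay on the other side of untreated from Jak1 and Jak2. The size of these moves was between 1.46 and 1.92 times the spot SD for the 3 kinases.

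**Figure D3:**
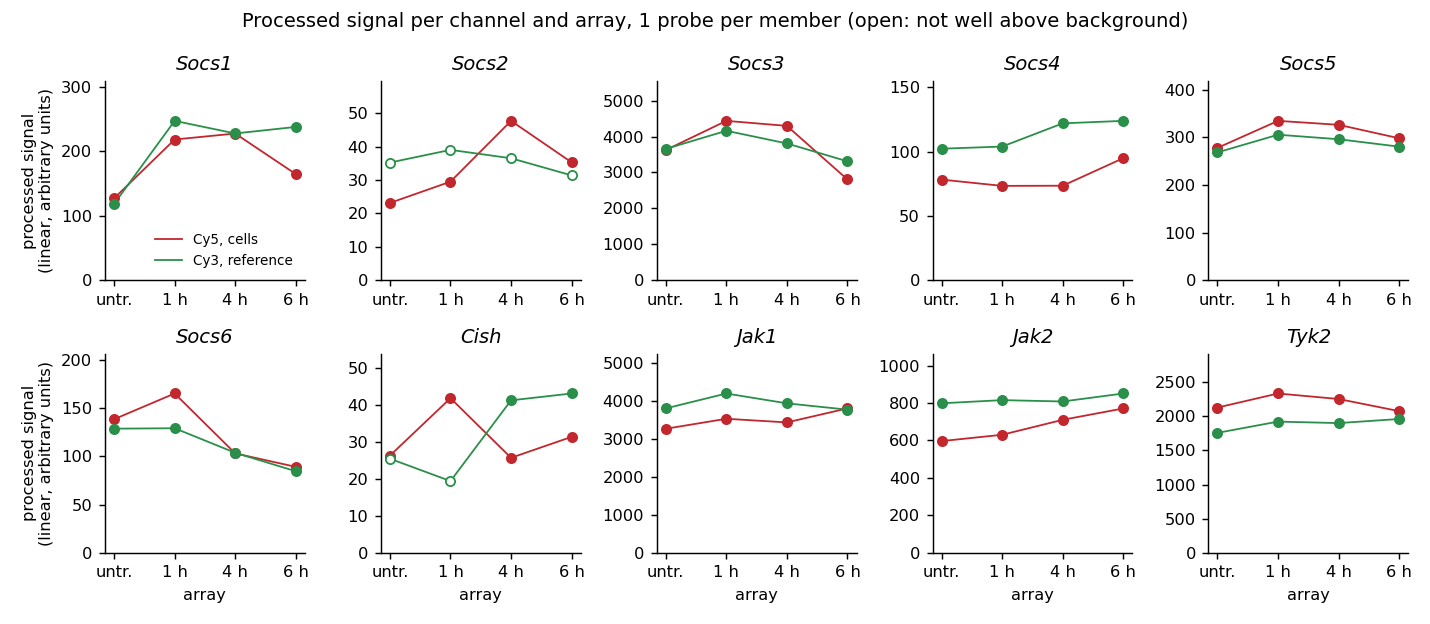
Processed signal (vertical axes, linear arbitrary units, each starting at 0) of 1 probe per member on the 4 arrays (horizontal axes), with Cy5 from the cells in red and the Cy3 reference in green. Open circles were not well above background, which is the case for the reference of Socs2 on all arrays and of Cish on the untreated and 1 h arrays, and both channels of Socs1 sit lowest on the untreated array, at 127 and 118.

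The member with the widest range of log2 ratio over the 4 arrays was Socs1, at 0.39, followed by Socs3 at 0.36. The median range over 10107 genes measured on all arrays was 0.26, and 25.8% of them had a wider range than Socs1. The narrowest range was that of Socs5, 0.12. Of 9797 named genes compared, those whose 3 differences from untreated lay nearest to those of Socs1 were Cabp5, Prpf8, Lair1, Ppib and Dnaaf2. Their distances were 0.01, 0.02, 0.03, 0.03 and 0.03 log2 units over 3 differences that share the untreated array.

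Other genes of the pathway were taken from 6 lists, and few of them passed. The STAT genes are the kinases' substrates. Of these, 5 were measured, with medians of 0.21, 0.12 and 0.16 at 1, 4 and 6 h and 0 past a log2 difference of 1. Stat6 stood at 0.28 at 1 h, Stat2 at 0.30 at 6 h and Stat5b at 0.23 at 1 h. Above 0 lay 4, 5 and 5 of the 5, beside 70.6%, 50.9% and 47.9% of all genes. Stat5a stood at 0.33 at 4 h, where its Cy5 signal alone differed by -1.08 and its reference by -1.65. At 1 h the Cy5 signal of Stat6 alone differed by 0.84 and its reference by 0.63. Averaged over its 2 probes, the reference of Stat5b read 326 on the untreated array and 945 on the 6 h array. Its Cy5 signal moved alike, at 279 and 909.

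Among ligands that signal through JAKs, 3 of 20 were measured at each time. Csf3, the granulocyte colony-stimulating factor, stood at 0.24 and 0.70 at 1 and 4 h and rose by 1.27 at 6 h, where 0.456% of all genes were at least 1 higher. Its Cy5 signal was 128, 171, 334 and 498 while its reference stayed between 229 and 280. Osm, a gp130 ligand, stood at 0.71 at 1 h, with a Cy5 signal of 164 in untreated cells and 491 at 1 h, and at -0.09 and -0.14 later. Il27 stood at 0.14, 0.20 and -0.0015. Il6, Lif, Ifnb1 and Ifng were dim in both channels throughout.

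Of 29 receptor chains, 21, 21 and 23 were measured at 1, 4 and 6 h, and 0 passed. Their medians were 0.04, 0.07 and -0.02. Il6ra, the interleukin 6 receptor, was the lowest, at -0.46 at 4 h and -0.83 at 6 h, with a Cy5 signal of 1971 in untreated cells and 802 at 6 h and a reference of 1782 and 1394. Il12rb1 stood at 0.68 at 6 h. Csf2rb2, a beta chain of the interleukin 3 receptor, stood at 0.66 at 4 h and 0.59 at 6 h, and Il10rb at 0.55 at 4 h. Csf2rb2 and Csf2rb are close copies, so their signals may not be separate.

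Of 14 other inhibitors of the pathway, 13 were measured at each time and 0 passed, with medians of 0.08, 0.05 and -0.01. Usp18, an inhibitor at the type I interferon receptor, stood at 0.10, -0.47 and -0.39. The phosphatase genes Ptpn1 and Ptprc stood at 0.41 and -0.44 at 4 h. The Ptprc reference differed by 0.98 there and its Cy5 by 0.46. Socs7, the SOCS family gene outside the members, stood at 0.23, 0.31 and 0.0046. A list of 6 ubiquitin ligase subunit genes held Elob, Eloc, Cul5, Rnf7, Cul2 and Rbx1, not all of which need serve the SOCS box. All were measured, with medians of 0.0032, 0.0068 and 0.12 and 0 past a log2 difference of 1. The extremes were -0.30 for Cul5 at 4 h and, at 6 h, -0.30 for Cul2 and 0.27 for Elob.

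Of 24 known STAT target genes, 20, 20 and 19 were measured, and 0, 0 and 2 passed, both higher at 6 h, where 0.456% of all genes were at least 1 higher. The medians were 0.06, -0.01 and -0.13. The genes that rose at 6 h were Cxcl10, an interferon-induced chemokine, at 1.11, and Pim1, a kinase gene driven by STAT3 and STAT5, at 1.10. Cxcl10 Cy5 was 301, 344, 508 and 560 with a reference of 459, 479, 384 and 322. Pim1 Cy5 was 325, 438, 582 and 927 with a reference between 404 and 452. Bcl6, a transcriptional repressor, stood at 0.94 at 4 and 6 h. Oas2, which is interferon-induced like Cxcl10, stood at -0.86 at 6 h, and Bcl3 at -0.83. In Cy5 alone Oas2 differed there by -0.65 and its reference by 0.23. Bcl3 differed by -0.43 in Cy5 and by 0.44 in its reference. At that time 9 of the 19 targets lay above 0 and 10 below, beside 47.9% above 0 over all genes.

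**Figure D4:**
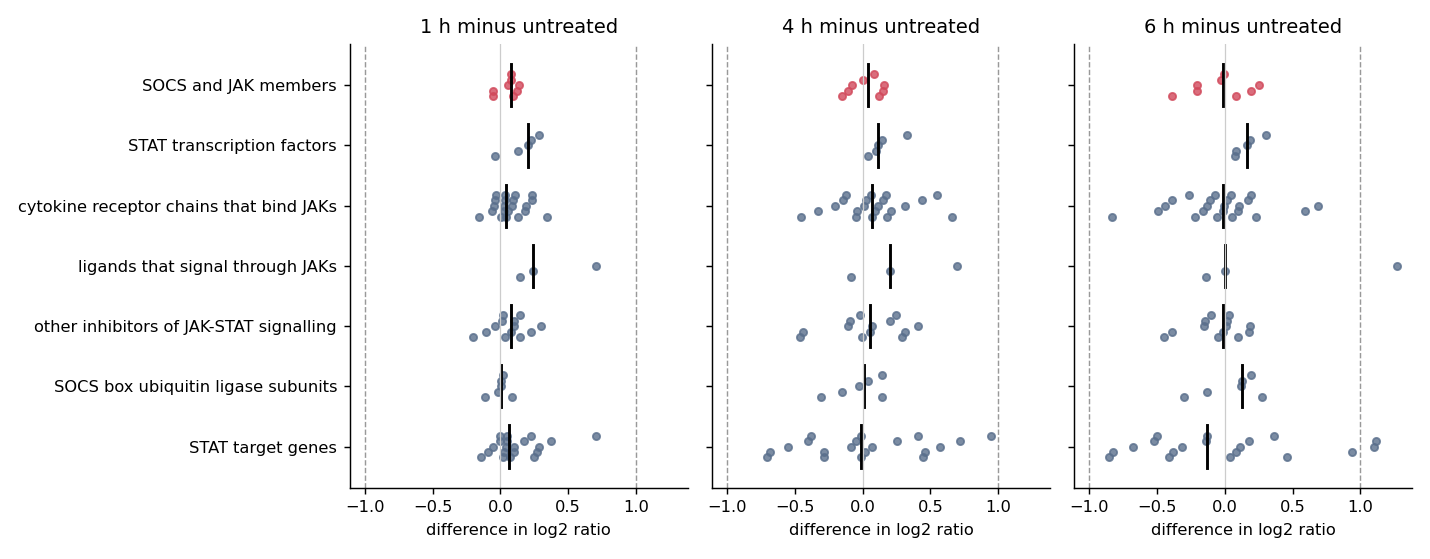
Difference in log2 ratio from the untreated array (horizontal axis) at 1, 4 and 6 h for the 8 measured SOCS and JAK members and for the measured genes of 6 pathway lists (vertical axis), 1 point per gene, with black bars at the medians and dashed lines at -1 and 1. The members lie between -0.39 and 0.25 at all times, and the points past 1 are Csf3, Cxcl10 and Pim1 at 6 h.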

How the data were processed

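The values were measured on 4 two-colour Agilent arrays and quantified by the scanner software, Agilent Feature Extraction, version 10.5.1.1, as the submitters' processing notes and file headers state. The deposited files give intensity values per spot (median spot and local background) and processed signals, background-subtracted and dye-normalized by the scanner software. They also give a deposited log10 ratio of Cy5 over Cy3, which the authors' table of the whole series repeats. Later steps of the authors are not given in the sources used here.

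Median intensities were corrected with normexp (offset 50) and normalized by loess within each array in limma 3.58.1 under R 4.3.3, with control and outlier spots at weight 0. Outlier spots (1.55% to 1.84% per array) were left out. Levels and single-channel differences are from processed signals, which share no scale between arrays beyond the scanner's steps: the median Cy5 difference over all genes was 0.16, 0.06 and 0.05 at 1, 4 and 6 h. Spots of a probe were averaged, then measured probes of a gene. A probe was well above background when most of its kept spots were. Accessions without versions named 27655 of 39429 probes through RefSeq (GRCm38.p6). The array was annotated on mm9, so only the RefSeq promoter windows carry coordinates.

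With 1 array per group there was no test. Named genes were the members, up to 4 genes per pathway list with the largest difference and all past the rule, and the 5 genes nearest to the member of widest range. Some list results are not reported here. Further genes are named as unmeasured, as a close copy (Csf2rb) or as a further low STAT target (Bcl3). Marker and pathway lists, the members and the 12 alternatives were chosen with earlier results of these data known, and 2 alternatives for Socs2 after seeing its values. The steps were tested on simulated data. Python 3.11.15, pandas 2.3.3 and matplotlib 3.10.9 made the tables and plots.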

Additional observations from a re-analysis of the deposited data

How the results depend on the processing

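The count of members past a log2 difference of 1 was 0 at 4 and 6 h under all 12 alternatives, the rule of 1.5-fold among them, and at 1 h under 11. It covered 10 members in Cy5 alone and without the filter, and 8 otherwise. Cy5 alone was taken here after normexp, loess and Aquantile, where Socs2 stood at 0.20 at 4 h. In the processed Cy5 signals, which are not among the 12, Socs2 passed at 4 h, at 1.07. With median centring and no loess, 3 passed at 1 h (Socs3, Jak1 and Tyk2), where the median of all genes was 0.86. Relative to that median they stood at 0.27, 0.20 and 0.15. Of 264 member values under the 11 alternatives to the values themselves, 229 moved by less than the spot SD, 35 moved by more and 25 had another sign. Each measured member had 1 usable probe, above background on all 4 arrays. Taking the brightest probe, or asking for all 4 arrays, therefore had to return the same 24 values each time. Leaving out the filter moved no value by more than 0.03. For the members, the deposited log ratios nearly repeated the processed signals. Relative to the median of all genes, the 6 h differences of Socs1, Socs3, Jak1, Jak2 and Tyk2 kept their sign under the 10 alternatives that use the reference. The alternatives on the filter and on the brightest probe left the differences of these genes unchanged and moved only the median. They were thus no separate check of the sign. At 1 h the signs of Socs5, Socs6, Jak1, Jak2 and Tyk2 turned under 1 to 3 of the 10 alternatives, and at 4 h that of Tyk2 under 2. In Cy5 alone after normexp, also relative to that median, Socs1 had the other sign at all 3 times (0.29, 0.38 and 0.15 at 1, 4 and 6 h). So did Socs6, Jak1, Jak2 and Tyk2 at 1 h (-0.04, -0.07, -0.08 and -0.12), Jak1 at 4 h (-0.04), and Socs4 and Socs6 at 6 h (0.11 and -0.27). The Socs2 difference in Cy5 at 4 h was 1.08 in processed signals, 1.14 without spots of outlying background and 0.25 after normexp, loess and Aquantile. Over all genes, the count past that difference ran from 35 (no filter) to 3030 (no loess) at 1 h, against 39. It ran from 46 to 244 at 4 h, against 47, and from 90 to 424 at 6 h, against 95, lowest without a filter and highest with the deposited log ratios (at 6 h also with the processed signals). Past 1.5-fold in place of 2-fold there were 183, 284 and 558 genes at 1, 4 and 6 h. No leaving out of an array and no paired analysis was possible because each group was 1 array. Signal over background limits Socs2 and Cish.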
